A study of Mus musculus with 3 samples.

Results

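Gamma cells, or PP cells, are the islet cells that make pancreatic polypeptide, and those described here carried little insulin RNA. They were chosen by their own counts in 3 single-cell libraries. A barcode was taken when it had at least 500 genes, at least 1000 UMIs (unique molecular identifiers, 1 for each RNA molecule counted) and at most 20% mitochondrial UMIs. Ppy then had to make up at least 5% of its UMIs and exceed Gcg and Sst, and Ins1 and Ins2 together had to stay under 10%. The rule found 1014 gamma cells among 28374 barcodes that passed the same quality limits: 381 carry the label WT, 166 the label ASF-KO and 467 the label SC35-KO. Since the rule used Ppy, Gcg, Sst, Ins1 and Ins2, the levels of these genes describe the choice.

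The libraries came from pancreatic islets of mice 9 months old, 1 library for each label: wild type (WT), a knockout named for ASF and a knockout named for SC35. SRSF1 is also known as ASF and SRSF2 as SC35, proteins of the SR family that bind RNA and take part in splicing. The labels used here do not say which exons or which cells the deletions reach, which part of the pancreas the islets came from, or how many mice each library holds. With 1 library per label no test was possible, and the intervals below are 95% intervals that cover counting error only, not the spread between mice.

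Pancreatic polypeptide is a secreted peptide of the neuropeptide Y family, which also holds peptide YY, the product of Pyy. It is released after a meal, under vagal control, and restrains exocrine secretion and appetite through the Y4 receptor. Gamma cells lie mainly at the islet mantle and are most frequent in the head of the pancreas, where the islets derive from the ventral bud. In the mouse, Ppy and Pyy are neighbours on chromosome 11 and many non-beta islet cells carry RNA of both.

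The start regions of Ppy and Pyy are shown because these genes give the most abundant RNAs of the gamma cells. The Ppy gene lies on the minus strand of chromosome 11 at 102099930 to 102101319 (GRCm38, GENCODE vM21) and the Pyy gene on the same strand at 102106676 to 102107832, 5356 bases away. Each window runs from 250 bases before to 50 bases after the RefSeq start (for Pyy, the further upstream of 2 starts), 5′ to 3′ on the gene's strand, in GRCm38.p6 coordinates. Capitals mark a TATAAA box in the Ppy window, chr11:102101270-102101569, and a CANNTG box in the Pyy window, chr11:102107783-102108082.
Ppy: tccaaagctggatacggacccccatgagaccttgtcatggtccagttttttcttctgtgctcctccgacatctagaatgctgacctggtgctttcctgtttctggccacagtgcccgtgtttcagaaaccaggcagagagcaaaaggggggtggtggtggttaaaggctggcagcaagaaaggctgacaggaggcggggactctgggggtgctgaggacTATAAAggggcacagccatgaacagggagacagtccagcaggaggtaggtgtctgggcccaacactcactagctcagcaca
Pyy: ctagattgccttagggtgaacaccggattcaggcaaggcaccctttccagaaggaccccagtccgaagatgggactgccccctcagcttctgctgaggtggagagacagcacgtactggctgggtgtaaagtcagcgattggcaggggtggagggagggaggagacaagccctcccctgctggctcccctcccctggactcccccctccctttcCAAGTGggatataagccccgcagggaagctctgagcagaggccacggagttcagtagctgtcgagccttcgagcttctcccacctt
TATAAA was searched on both strands and occurs once in the Ppy window, starting at position -31, and nowhere in the Pyy window. CANNTG, the core that bHLH factors recognise, occurs once in the Pyy window, at position -36, and nowhere in the Ppy window. Of 32851 RefSeq windows of the same length, 13.6% held TATAAA and 72.3% held CANNTG, so the first box is the less common. Tspan8 lies on chromosome 10 at 115816832 to 115849893 on the plus strand and Folr1 on chromosome 7 at 101858331 to 101870788 on the minus strand.

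Ppy took a large part of each gamma cell's RNA. In WT its share of a cell's UMIs ran from 5.23% to 67.0% with a median of 35.98%, in ASF-KO from 5.29% to 61.1% with a median of 28.84%, and in SC35-KO from 5.08% to 71.8% with a median of 41.88%. Few cells lay near the limit: 3, 2 and 7 cells (in the order WT, ASF-KO, SC35-KO, kept in all lists of 3 values below) had 5 to 6% Ppy, and 6, 4 and 4 barcodes just outside had 4 to 5%. Few lay near the insulin limit either, with 3, 3 and 5 cells at 8 to 10% and 4, 0 and 4 barcodes at 10 to 12%. The median insulin share was 1.11%, 1.83% and 1.58%. Their summed Ins2 was 10050, 15930 and 12700 CPM (UMIs of the summed cells scaled to a common total). This was below the 17760, 39490 and 29270 CPM of endothelial barcodes, which should lack it. Of these 681, 394 and 391 endothelial barcodes, 24, 13 and 32 also met an endocrine hormone limit. Without them Ins2 was at 17900, 41750 and 32850 CPM, also above the gamma level. Median depth was 13338, 12220 and 10478 UMIs in gamma cells and 3025, 3484 and 2685 UMIs in endothelial barcodes. Since depth differed, these CPM values do not give the part of free RNA in the insulin of gamma cells, which was not tested.

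Pyy was the other leading RNA, and the rule did not use it. Its median share was 10.27%, 10.91% and 8.84% of a cell's UMIs, with cells from 1.35% to 37.8% in WT, from 1.30% to 28.5% in ASF-KO and from 0.102% to 33.8% in SC35-KO. All but 1 of the 1014 gamma cells carried at least 1% Pyy, as did 98.0 to 99.5% of delta cells and 74.5 to 86.4% of alpha cells, against 4.17 to 4.40% of beta cells. Summed Pyy was 113200, 115600 and 99690 CPM in gamma cells and 5067, 3057 and 7061 CPM in endothelial barcodes, or 882, 373 and 731 CPM without those that met an endocrine limit. The order gamma, delta, alpha, beta held in each library. Ghrl, the ghrelin gene of epsilon cells, was nearly absent, with 2.48 CPM in WT, 0 UMIs in ASF-KO (upper bound 1.68 CPM) and 2.52 CPM in SC35-KO.

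By CPM, the other markers, Tspan8 and Folr1, set gamma cells apart from alpha and beta cells but not from delta cells. Tspan8, a tetraspanin of the cell membrane, stood at 318, 389 and 559 CPM in gamma cells, at 26.6, 22.9 and 42.3 CPM in alpha cells and at 13.9, 10.8 and 21.4 CPM in beta cells. Delta cells were close to gamma cells, with 340, 364 and 481 CPM. Folr1, a folate receptor, behaved alike, at 226 (WT), 255 (ASF-KO) and 193 (SC35-KO) CPM in gamma cells, 49.0 to 56.4 CPM in alpha cells and 177 to 231 CPM in delta cells. With each cell thinned to 2000 UMIs, Tspan8 was found in 44.4%, 46.4% and 58.2% of gamma cells, in 4.39%, 4.39% and 7.20% of alpha cells and in 4.90%, 4.63% and 7.93% of endothelial barcodes, so the alpha share was near that of the reference. Without the barcodes that met an endocrine limit, endothelial Tspan8 was at 30.2, 20.7 and 43.6 CPM, near the alpha level. Thinning left out 9, 0 and 10 gamma cells, and the median depths were 13338, 12220 and 10478 UMIs in gamma cells and 3025, 3484 and 2685 UMIs in endothelial barcodes. Tspan8 and Folr1 were thus carried by gamma and delta cells alike. Folr1 in alpha cells was above the reference, unlike Tspan8. Thinned, it was found in 10.2% of alpha cells and 1.22% of endothelial barcodes in WT, and in 9.73% and 1.09% in ASF-KO.

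The share of gamma cells was lower in ASF-KO. They were 4.10% of kept barcodes in WT (exact interval 3.71 to 4.52%), 2.24% in ASF-KO (1.92 to 2.61%) and 3.997% in SC35-KO (3.65 to 4.37%). The difference between ASF-KO and WT was -1.86 percentage points (Newcombe interval -2.39 to -1.33) and that between SC35-KO and WT -0.106 points (-0.648 to 0.429). Among endocrine barcodes the shares were 4.92%, 2.42% and 4.25%. On this denominator ASF-KO differed from WT by -2.50 points (-3.10 to -1.89) and SC35-KO by -0.669 points (-1.29 to -0.0638), so the interval for SC35-KO held 0 over kept barcodes and not over endocrine ones. The quality limits removed 9.53%, 40.8% and 16.1% of all barcodes, and the labels do not say from which part of the pancreas each library's islets came. The part of either in the lower share was not tested, and with 1 library a label, mouse and genotype cannot be told apart.

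Many gamma cells carried RNA of a second islet hormone. At a limit of 1% of UMIs, chosen after the values were seen, 232 of 381, 110 of 166 and 287 of 467 gamma cells had neither Gcg nor Sst (60.9%, 66.3% and 61.5%). Another 113, 48 and 115 cells had Gcg, the glucagon gene (29.7%, 28.9% and 24.6%), and 29, 8 and 61 had Sst, the somatostatin gene (7.61%, 4.82% and 13.1%). Both were above the limit in 7, 0 and 4 cells. The split was wide for Gcg, with a median of 0.0781%, 0.0811% and 0.112% in the cells with Ppy alone and of 7.50%, 6.55% and 8.74% in those with Gcg, and 28, 7 and 19 cells between 0.5 and 2%.

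**Figure D1:**
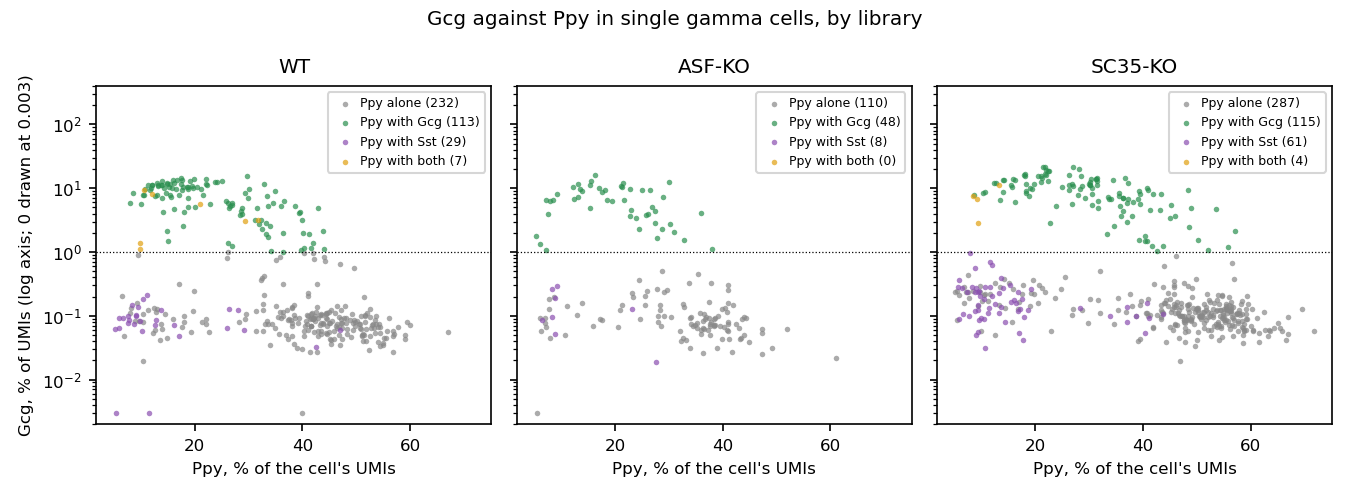
Each point is 1 gamma cell, placed by its Ppy share (horizontal, % of UMIs) and its Gcg share (vertical, % of UMIs on a log axis, with 0 drawn at 0.003), in WT (381 cells), ASF-KO (166) and SC35-KO (467). The dotted line is the 1% limit; cells above it form a separate cloud whose Ppy share is lower than that of most cells below it.

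Free RNA sets a level to read these shares against. Gcg at 1% or more was found in 31.5%, 28.9% and 25.5% of all gamma cells but in 0.426%, 0.954% and 0.541% of delta cells and in 2.64%, 2.79% and 6.65% of endothelial barcodes. Sst at 1% or more was found in 9.45%, 4.82% and 13.9% of gamma cells, in 1.18%, 1.63% and 3.22% of alpha cells and in 1.62%, 1.02% and 1.79% of endothelial barcodes. Without the endothelial barcodes that met an endocrine limit, these became 0.152%, 0.525% and 0.279% for Gcg and 0.609%, 0% (0 of 381 barcodes, which allows up to 0.787%) and 0.279% for Sst. Both shares were thus above the reference cells of the same library. Between libraries the Gcg share differed by -6.01 points in SC35-KO against WT (-12.1 to 0.0717) and -2.58 in ASF-KO against WT (-10.6 to 5.98), so neither difference was beyond counting error. The Sst share was 9.10 points higher in SC35-KO than in ASF-KO (3.86 to 13.3) and 4.47 points higher than in WT (0.0702 to 8.75).

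Depth and doublet calls differed between these groups of cells. Median UMIs were 14773, 12450 and 11471 with Ppy alone, 12717, 11940 and 10646 with Gcg, and 7906, 7822 and 5606 with Sst. Scrublet, which marks barcodes that resemble simulated pairs of cells, marked 7, 10 and 34 gamma cells in all. Of these, 2, 8 and 19 had Ppy alone, 1, 1 and 6 had Gcg, and 1, 1 and 7 had Sst. Both hormones were found in another 3 marked cells of 7 in WT and 2 of 4 in SC35-KO, the highest marked share of the groups there. Among the cells with Ppy alone, with Gcg and with Sst, those with Sst were the shallowest. They were near the depth of delta cells (7741, 7749 and 5465). The few cells with both hormones had medians of 10604 UMIs in WT and 4304 in SC35-KO. The part of depth or doublets in the split was not tested.

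The 3 groups of gamma cells differed in genes that the limit did not use. Cells with Gcg carried more RNA of several alpha cell genes. Ttr, the thyroxine carrier transthyretin, was at 976 CPM with Ppy alone, 5940 CPM with Gcg and 561 CPM with Sst in WT, against 29420 CPM in alpha cells. In ASF-KO these values were 1311, 8168, 501 and 30810 CPM and in SC35-KO 1077, 8545, 658 and 37340 CPM. The cells with Gcg stood between the cells with Ppy alone and alpha cells in each library. Irx2, Irx1 and Slc30a8, the zinc transporter of secretory granules, had the same order in each library, with Slc30a8 at 48.9, 175 and 437 CPM in WT (Ppy alone, with Gcg, alpha). Other alpha markers did not all follow. Gc was at 152, 150 and 190 CPM in WT, 209, 231 and 261 CPM in ASF-KO and 152, 169 and 183 CPM in SC35-KO. Pou3f4, with few UMIs, was lower with Gcg than with Ppy alone in SC35-KO (0.749 against 1.78 CPM) and higher in WT and ASF-KO.

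Cells with Sst carried delta cell genes instead. Hhex, a factor needed for delta cells, was at 0 UMIs with Ppy alone, 107 CPM with Sst and 226 CPM in delta cells in WT. In ASF-KO it was at 3.39, 171 and 257 CPM and in SC35-KO at 3.25, 157 and 257 CPM. Rbp4, a retinol carrier, was at 149, 2112 and 3792 CPM in WT and 159, 2368 and 4315 CPM in SC35-KO. Cells with Sst thus stood between the cells with Ppy alone and delta cells for both genes. Iapp, the amylin gene, was highest with Sst as well, at 12710 CPM in WT against 5541 with Ppy alone and 1624 with Gcg, and delta cells held 17150 CPM.

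**Figure D2:**
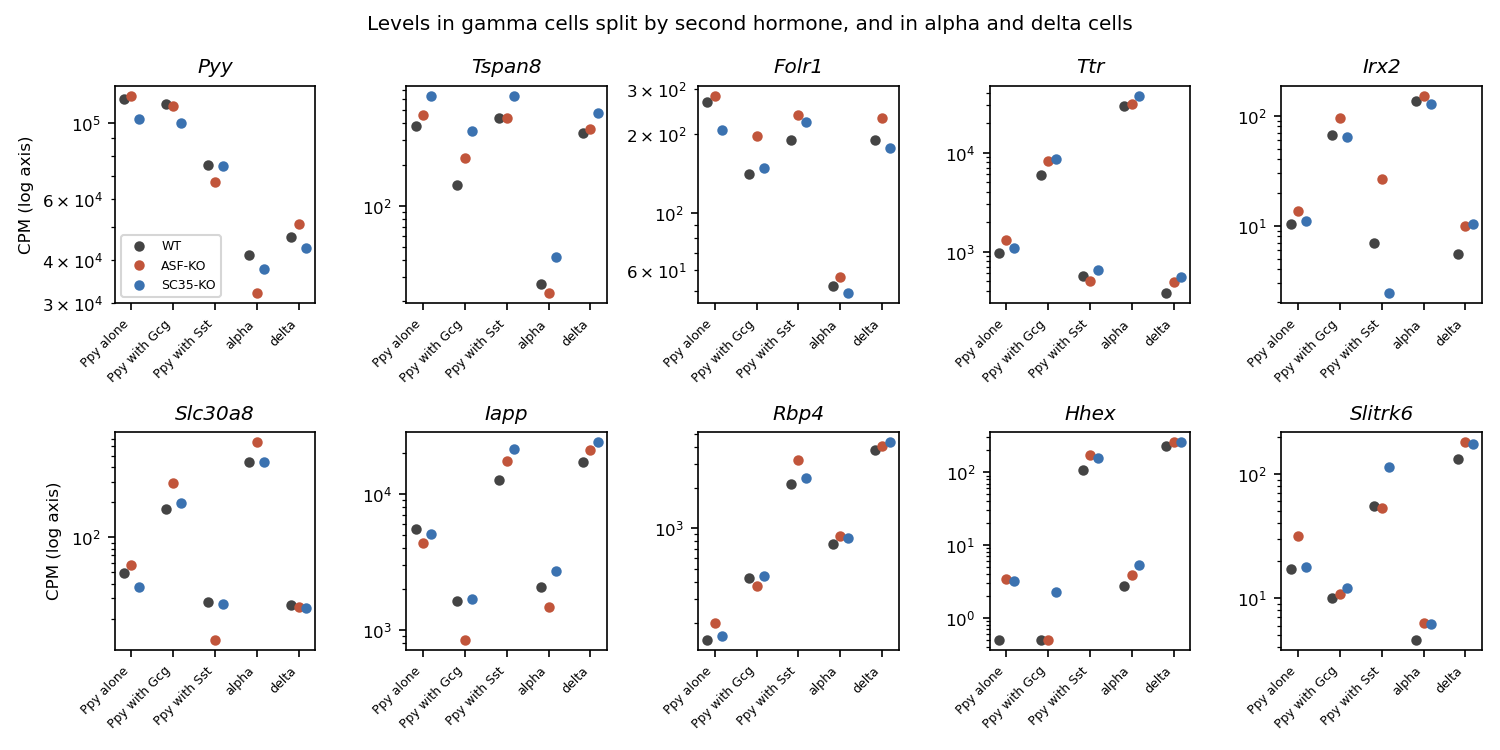
Summed level (CPM, log axis, values under 0.5 drawn at 0.5) of 10 genes in gamma cells with Ppy alone, with Gcg and with Sst, and in alpha and delta cells, 1 point per library. Ttr, Irx2 and Slc30a8 lie between Ppy-alone and alpha levels in cells with Gcg, and Hhex, Rbp4 and Slitrk6 lie towards delta levels in cells with Sst.

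Ppy itself had a lower share in the cells with a second hormone (the shares of a cell are parts of 1 total). Its median was 42.84%, 35.88% and 49.5% with Ppy alone, 21.25%, 21.21% and 30.48% with Gcg and 10.29%, 8.83% and 11.91% with Sst. Pyy did not follow it between the first 2 groups, at 10.72%, 11.27% and 9.25% with Ppy alone and 10.56%, 10.35% and 9.48% with Gcg, and was 5.57%, 5.35% and 5.92% with Sst. The cells with Ppy alone were not uniform either: 30, 17 and 37 of them had under 20% Ppy, a value chosen after seeing the cells. Their median Pyy was 4.39%, 5.66% and 5.05%, against 11.2%, 11.9% and 9.70% in the rest. They also had fewer UMIs, with medians of 11050, 8618 and 5643 against 15730, 13149 and 12017.

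Gamma cells were next set against alpha, delta and beta cells of the same library. There were 1357, 1472 and 2862 alpha cells, 704, 629 and 1480 delta cells and 5066, 4158 and 5478 beta cells. A fold is the CPM ratio divided by that of the median measured gene, and a gene counts as higher or lower when it is at least 1.5-fold from the median gene in the same direction in all 3 libraries. Genes that reached 10 CPM and 20 UMIs in either sum count as measured. The cells were divided by hormone levels, so these folds describe the classes and carry no test. Against alpha cells 2.28% of 7204 measured genes were higher and 2.65% lower, against delta cells 3.96% and 7.01% of 7933, and against beta cells 7.15% and 9.19% of 6223. By this measure alpha cells were nearest to gamma cells. The median gene had CPM ratios of 0.648, 0.805 and 0.715 against alpha, 0.560, 0.723 and 0.546 against delta and 0.960, 1.66 and 1.27 against beta cells, so a gene can be higher by fold and not by CPM.

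A few genes were higher than in each of the other types. Spp1, the secreted matrix protein osteopontin, was at 218, 262 and 244 CPM in gamma cells and 46.7 to 70.8 CPM in alpha, 40.6 to 46.4 CPM in delta and 19.1 to 33.8 CPM in beta cells. Its folds were 4.76 to 7.30 over alpha, 8.41 to 10.7 over delta and 4.68 to 11.9 over beta cells, and endothelial barcodes held 9.04 to 11.6 CPM. Spp1 is also a gene of ductal cells. The 7 ductal markers, Spp1 among them, summed to 653, 772 and 616 CPM in gamma cells. These sums are above Spp1 alone, so other ductal markers were present too. Krt19, Sox9 and Cftr were at 0 UMIs in ASF-KO and Cftr in SC35-KO, but no ductal marker was at 0 UMIs in WT. Thinned to 2000 UMIs, 26.3%, 25.9% and 22.5% of gamma cells had an Spp1 UMI, against 8.12%, 9.32% and 8.02% of alpha cells, so its RNA was spread over many cells. Cd9, a tetraspanin like Tspan8, was at 118, 94.96 and 130.5 CPM, with folds of 2.69 to 8.37 over alpha and 35.6 to 43.8 over delta cells. Endothelial barcodes held 115, 121 and 231 CPM of Cd9, near the gamma level in WT and above it in the other libraries. Without those that met an endocrine limit the values were 120.5, 128 and 263 CPM. The alpha level of Cd9 varied from 14.1 to 68.0 CPM between libraries.

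Among the other leading genes were Maged2, Malat1, Snhg18, Tmem176a, Kcnk16, Tuba1a, Prdx1, Rcn3 and Fosb. Of these, only Maged2 and Snhg18 had folds of at least 1.5 over each type in each library. Fosb over alpha cells had 1.25 to 1.46. Kcnk16 had 1.368 to 1.419 over delta cells, and its lowest folds were 1.485 over alpha and 1.419 over beta cells. The lowest folds of Prdx1 were 1.319 over delta and 1.431 over beta cells. On the CPM scale Malat1 was no higher than in delta cells of WT (35490 against 37060 CPM) and SC35-KO (18430 against 19310 CPM). Prdx1 was below delta cells in each library (223, 283 and 291 against 250, 297 and 349 CPM). In WT and SC35-KO, Tmem176a and Kcnk16 were below delta cells, and Rcn3 and Fosb below alpha cells. Tuba1a was below alpha cells in WT.

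**Figure D3:**
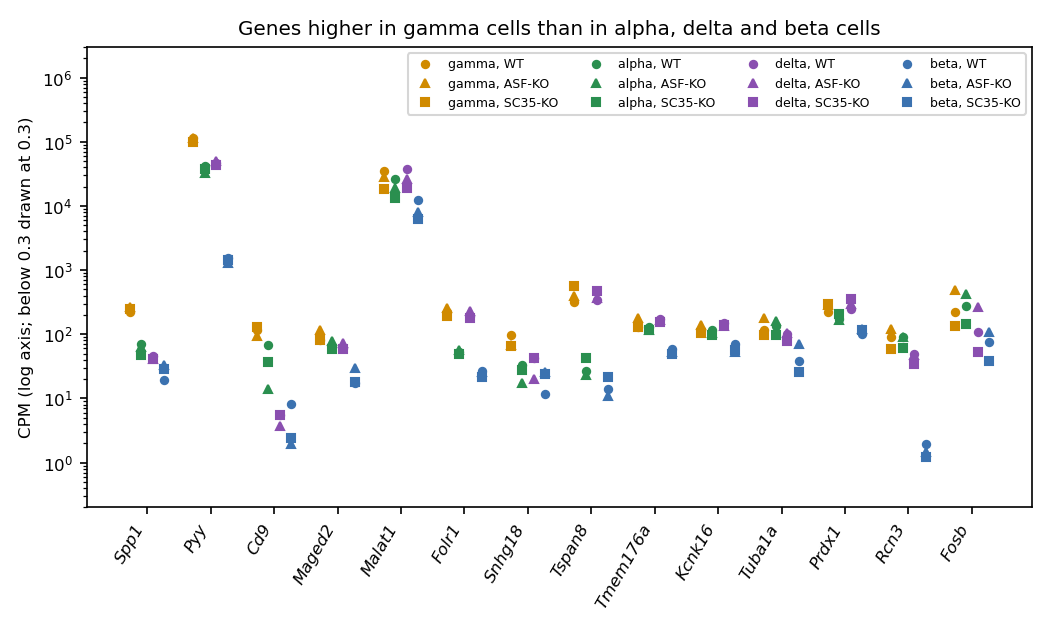
Summed level (CPM, log axis, values under 0.3 drawn at 0.3) of the leading genes reported here in gamma, alpha, delta and beta cells, with 1 symbol per library. Spp1 is highest in gamma cells throughout, and Tspan8 and Folr1 are shared with delta cells.

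Against alpha cells the lowest genes were alpha genes. Of 9 measured alpha markers, 6 were lower, among them Gcg, Irx1, Irx2, Slc7a2 and Ttr, and none higher. Ttr had folds of 0.113 to 0.133 and Irx1 0.102 to 0.167. The amino acid transporter Slc7a2, the lipase Lpl, the oxytocin receptor Oxtr and the kinase Wnk3 were also among the 10 lowest. Against delta cells all 4 measured delta markers were lower, with Hhex at 0.0440 to 0.116, and Ly6h, Cd24a, Dpp6 and Cacna2d2 were among the lowest. Against beta cells all 13 beta markers were lower, as the choice by insulin favours.

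Of 21 measured islet transcription factors, 2 were higher than in alpha cells (Pdx1, with folds of 3.58 to 5.81, and Nkx6-1, with 2.33 to 3.71) and 3 lower, among them Irx2 and Onecut2. Both Pdx1 and Nkx6-1 act in beta cells, over which the gamma folds were 0.181 to 0.240 and 0.219 to 0.279. Against delta cells 5 of 24 were higher and 6 lower, and against beta cells 7 and 6 of 21. Over all measured genes 2.28% were higher and 2.65% lower than in alpha cells. The same shares were 3.96% and 7.01% against delta cells, and 7.15% and 9.19% against beta cells. Etv1, an ETS factor, was at 307, 326 and 288 CPM and Meis2, a homeobox factor, at 198, 237 and 190 CPM, both higher than in beta cells, by folds of 3.65 to 8.76 and 1.65 to 1.94. Neither was particular to gamma cells on the CPM scale. Etv1 was at 532, 421 and 440 CPM in alpha and 408, 289 and 423 CPM in delta cells. Meis2 was at 242, 219 and 191 CPM in alpha and 457, 416 and 440 CPM in delta cells. Etv1 and Meis2 belong to a list of 16 genes named for human PP cells, of which Id2 and Fgfr1 were also higher than in beta cells. Slitrk6 of that list was higher than in alpha cells (5.21 to 5.94) and lower than in delta cells (0.203 to 0.255).

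None of 31 measured exocytosis and channel genes differed from alpha cells by 1.5-fold in all libraries, which is near the background of 2.28% higher and 2.65% lower over all genes. Against beta cells 3 of 33 were higher and 8 lower, beside 7.15% and 9.19% over all measured genes, so the higher share was near background. Among prohormone processing genes, 4 of 14 were higher than in alpha cells: Pcsk1, Dpp4, Sec11c and Spcs2. Pcsk1, the convertase that alpha cells largely lack, was at 13.4, 31.4 and 12.4 CPM, with folds of 2.65 to 5.13 over alpha and 0.0820 to 0.113 over beta cells. Pcsk2, the convertase of glucagon processing, was at 4085, 4060 and 2180 CPM, with folds of 0.705 to 0.825 over alpha cells. The granins Chgb and Scg2 were higher than in alpha cells, by 1.69 to 2.06 and 2.43 to 2.52.

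Few receptors were measured. Chrm3, the M3 muscarinic receptor, was at 13.6, 17.7 and 10.7 CPM, with folds of 13.8 to 22.0 over alpha and 3.03 to 4.29 over delta cells. Ffar4, a receptor of long-chain fatty acids, had folds of 10.4 to 15.8 over beta cells and Vipr1, a VIP receptor, 8.88 to 11.2 over delta cells. Glp1r was lower than in beta cells (0.0541 to 0.0799). The Y4 receptor gene Npy4r had 0 UMIs in each library's gamma cells, with upper bounds of 0.704, 1.68 and 0.714 CPM.

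Immediate early genes, which cells switch on within minutes of a stimulus, were higher in gamma cells than in delta and beta cells. All 14 measured members were higher than in delta cells (median folds 2.42, 2.60 and 2.89) and 11 of 14 higher than in beta cells (3.08, 2.28 and 2.16). Against alpha cells 2 were higher and 1 lower of 15. Ribosomal protein genes were higher than in beta cells for 47 of 76, and no member differed so from alpha cells. The stress response arm of ATF4 was lower than in beta cells for 11 of 14 genes. Over all measured genes 3.96% were higher than in delta cells, and 7.15% were higher and 9.19% lower than in beta cells. Against alpha cells these shares were 2.28% and 2.65%.

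Before the libraries were compared, the targeted genes were read. Srsf1 was at 30.9, 53.6 and 49.6 CPM in gamma cells and Srsf2 at 31.9, 69.1 and 41.0 CPM. Srsf1 was thus not lower in the library labelled ASF-KO (fold 1.32, 1.03 to 1.68) nor Srsf2 in the library labelled SC35-KO (1.32, 1.07 to 1.63). Counts at the 3′ end of a gene do not show whether an exon further up was removed, so these values check neither label. Libraries shared 13 to 32 kept barcodes by pairs, and 1 barcode was a gamma cell in both WT and SC35-KO. Gamma cells of the 3 libraries held 5240618, 2200979 and 5164629 UMIs in all.

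In ASF-KO against WT, 7.58% of 7258 measured genes were higher and 11.4% lower than the median gene by 1.5-fold. The median gene itself had a CPM ratio of 1.318 (0.40 on the log2 scale), beside a lower Ppy, whose CPM ratio was 0.830. Folds are given relative to that gene. Among members of the marker list, Ppy had a fold of 0.629 and Pyy of 0.774, Tspan8 0.928 and Folr1 0.857. The second comparison, SC35-KO against WT, shares the WT library. There 4.48% of 6606 genes were higher and 6.46% lower, the median gene had a ratio of 0.975, and the folds of Ppy, Pyy, Tspan8 and Folr1 were 1.20, 0.903, 1.80 and 0.878.

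Metallothioneins were far lower in ASF-KO. Mt1, a small protein that binds zinc and copper, was at 1580 CPM in WT, 191 in ASF-KO and 742 in SC35-KO. Its fold in ASF-KO was 0.0918 (0.0831 to 0.101) in gamma cells, 0.0586 in alpha, 0.147 in delta and 0.0359 in beta cells. Mt2 was at 397, 49.5 and 196 CPM with a fold of 0.0946. Both were lower in each endocrine type of this library, so the difference was not confined to gamma cells. In the cells with Ppy alone Mt1 had a fold of 0.105.

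Many genes of ribosomes and of the respiratory chain were lower in ASF-KO. Of 76 ribosomal protein genes 41 were lower and none higher, with a median fold of 0.642. The shares over all measured genes were 11.4% lower and 7.58% higher. Rps28 had 1703, 452 and 742 CPM (fold 0.201) and Rps29 4265, 1289 and 1805 CPM (0.229), whereas Rps2, with 777, 1003 and 768 CPM, had 0.979. The median in alpha, delta and beta cells was 0.736, 0.649 and 0.802. Of 47 nuclear genes of oxidative phosphorylation 25 were lower and none higher (median 0.662), with Atp5k, a subunit of ATP synthase, at 290, 108 and 123 CPM (0.282) and Ndufc1, a subunit of complex I, at 170, 84.96 and 148 CPM (0.380). Atp5md and the RNA polymerase subunit Polr2l were among the 10 lowest genes of the comparison, with 0.260 and 0.244. The genes lower in ASF-KO had a median exonic length of 3020 bases, those higher 5966 bases and all measured genes 4809 bases. In SC35-KO against WT the lengths were 3677 bases for lower, 4466 for higher and 4723 for all genes. The part of RNA length, or of the higher share of removed barcodes, in these folds was not tested.

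Genes encoded in mitochondria went the other way. Of 13 measured, 5 were higher in ASF-KO and 1 lower, with a median fold of 1.39. Among all measured genes 7.58% were higher and 11.4% lower. The complex I gene mt-Nd5 was at 291, 760 and 274 CPM (fold 1.98) and mt-Nd4 at 1052, 2299 and 1248 CPM (1.66), while mt-Nd3 was at 735, 387 and 435 CPM (0.399). The median share of mitochondrial UMIs in a gamma cell was 1.87%, 3.298% and 2.04%, so it was highest in ASF-KO. Alpha, delta and beta cells had medians of 1.72, 1.54 and 1.35 for this list.

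Genes of sterol and fatty acid synthesis were also higher in ASF-KO, with 8 of 18 higher and none lower (median 1.42). Among all measured genes 7.58% were higher and 11.4% lower. Cyp51, the lanosterol demethylase, was at 10.9, 38.6 and 9.88 CPM (fold 2.69, 1.90 to 3.84) and Idi1, which isomerises isopentenyl diphosphate, at 6.87, 19.99 and 7.16 CPM (2.21, 1.39 to 3.53). SC35-KO was close to WT for both genes. Alpha, delta and beta cells had list medians of 1.36, 1.33 and 1.24.

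Among single genes, Wnk3, a kinase that regulates chloride transport, was at 23.3, 82.2 and 35.8 CPM (fold 2.68, 2.12 to 3.40) and Kcnq1ot1, a long RNA of the imprinted Kcnq1 locus, at 148, 364 and 172 CPM (1.87). Hyou1, an ER chaperone, was at 33.4, 91.3 and 32.7 CPM (2.07), but the ER chaperone list was near the median gene in gamma cells (2 higher and 3 lower of 27, median 1.04) and had a median of 2.34 in beta cells. Olfm3, Ube2q2, Hist1h1e, Agfg1 and Casc4 were other leading higher genes, with folds of 2.06 to 2.73. Pcsk1 was the only one of 14 processing genes past 1.5-fold, at 1.78. Of 9 measured beta markers 4 were lower: Slc2a2, the glucose transporter GLUT2, with 0.380, G6pc2 with 0.421, Ucn3 with 0.476 and Iapp with 0.574. The list median was 0.808 in gamma, 0.772 in alpha, 1.08 in delta and 0.785 in beta cells. By CPM, Slc2a2, G6pc2 and Ucn3 were also lower in alpha and delta cells, with Slc2a2 at 13.46 (WT) and 7.51 (ASF-KO) in alpha. Iapp was lower in alpha (2061 and 1481) but higher in delta cells (17150 and 20850). Thinned to equal depth, Slc2a2 was found in 1.88% and 2.41% of gamma cells and 4.9% and 3.54% of endothelial barcodes. The part of free RNA was not tested. None of the 10 granin genes and 1 of 31 exocytosis genes (Cacna1d, 0.525) was past the limit. Among all measured genes 7.58% were higher and 11.4% lower, so the ER chaperone counts were near background.

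**Figure D4:**
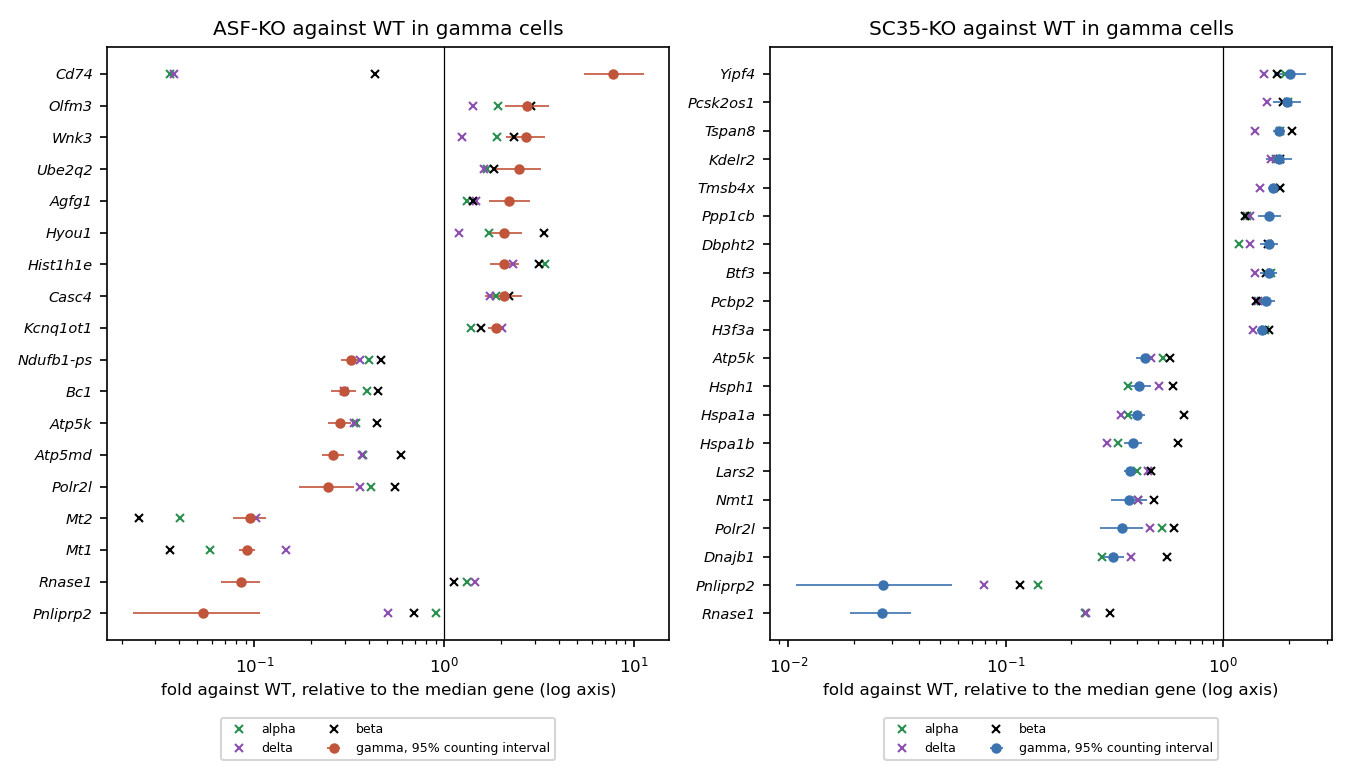
Fold against WT relative to the median gene (log axis) of the leading higher and lower genes reported here, in gamma cells, with 95% counting intervals (dots), and the fold of the same genes in alpha, delta and beta cells (crosses). Mt1 and Mt2 are lower in each type in ASF-KO; Cd74, Rnase1 and Pnliprp2, whose UMIs come mostly from single cells, differ between types.

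In SC35-KO 14 of 16 measured immediate early genes were lower and none higher, with a median fold of 0.566. Among all measured genes 6.46% were lower and 4.48% higher in SC35-KO, and 11.4% and 7.58% in ASF-KO. Fos was at 499, 749 and 222 CPM (fold 0.456, 0.425 to 0.489), Jun at 698, 1165 and 404 CPM (0.593) and Egr1 at 401, 552 and 212 CPM (0.542). Atf3, also a stress factor, was at 25.4, 23.2 and 1.55 CPM (0.0626, 0.0265 to 0.127), and Ier5 was the highest member with 1.22. Thinned to 2000 UMIs, a Fos UMI was found in 57.0%, 66.3% and 29.3% of gamma cells. The medians in alpha, delta and beta cells were 0.581, 0.501 and 0.730, so the lower level was shared by the types. In the cells with Ppy alone 9 of 15 were lower (median 0.601). In ASF-KO 4 of 18 were higher than in WT and none lower, with a median of 1.11, so SC35-KO was lowest of the 3 libraries for Fos, Jun, Egr1 and Atf3.

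Heat shock genes were lower as well. In SC35-KO 8 of 13 were lower and none higher (median 0.629) and in ASF-KO 7 were lower and 1 higher (0.626). Among all measured genes 6.46% were lower in SC35-KO and 11.4% in ASF-KO. Alpha, delta and beta cells had medians of 0.561, 0.657 and 0.675 in SC35-KO, so each type was lower there. In ASF-KO the medians were 0.752, 0.925 and 1.045, so delta and beta cells were near the median gene. Dnajb1, a cochaperone of HSP70, was at 269, 274 and 81.7 CPM, with a fold of 0.312 in SC35-KO and 0.774 in ASF-KO. Hsph1 was at 165, 95.4 and 65.4 CPM (0.408 in SC35-KO). Hspa1a and Hspa1b, with folds of 0.401 and 0.383 in SC35-KO, are near-identical copies between which reads can be split, so each value is uncertain.

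Tspan8 was the marker that was higher in SC35-KO, with a fold of 1.80 (1.70 to 1.91). The folds were 1.82 in alpha, 1.40 in delta and 2.06 in beta cells and 1.73 in the cells with Ppy alone. Yipf4, Pcsk2os1, Tmsb4x and Kdelr2 (2.02, 1.96, 1.69 and 1.80) were further leading genes, with Tmsb4x, the actin-binding thymosin, at 494, 668 and 813 CPM. Pcsk2 was lower in SC35-KO, with a fold of 0.547 (0.535 to 0.560), and its antisense RNA Pcsk2os1 higher, at 49.6, 64.1 and 94.9 CPM. Both held in alpha (0.612 and 1.97), delta (0.577 and 1.58) and beta cells (0.645 and 1.88). Whether the counting used strand is not given in the sources used here, and without strand reads of these overlapping genes cannot be told apart.

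The lower genes of SC35-KO also held Lars2, a mitochondrial leucyl-tRNA synthetase, at 724, 1100 and 261 CPM (0.370), and Nmt1, an N-myristoyltransferase, at 84.5, 45.4 and 30.4 CPM (0.369). Oxidative phosphorylation (1 higher and 2 lower of 47, median 0.973) and ribosomal protein genes (8 lower of 76, median 1.01) were near the median gene, unlike in ASF-KO. The calcium channel gene Cacna1d was lower in both, with 0.543 in SC35-KO. Of 12 measured receptors Sstr3 and Vipr1 were lower (0.586 and 0.596). Beside these list counts, 4.48% of all measured genes were higher and 6.46% lower in SC35-KO. Of 21 transcription factors Hhex alone was past 1.5-fold, at 6.11, 8.18 and 16.3 CPM (2.73, 1.80 to 4.24). Sst had a fold of 1.95. The cells with Sst numbered 29, 8 and 61. In the cells with Ppy alone Sst had a fold of 1.12 and Hhex was at 0, 3.39 and 3.25 CPM. The part of the cells with Sst in either fold was not tested.

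**Figure D5:**
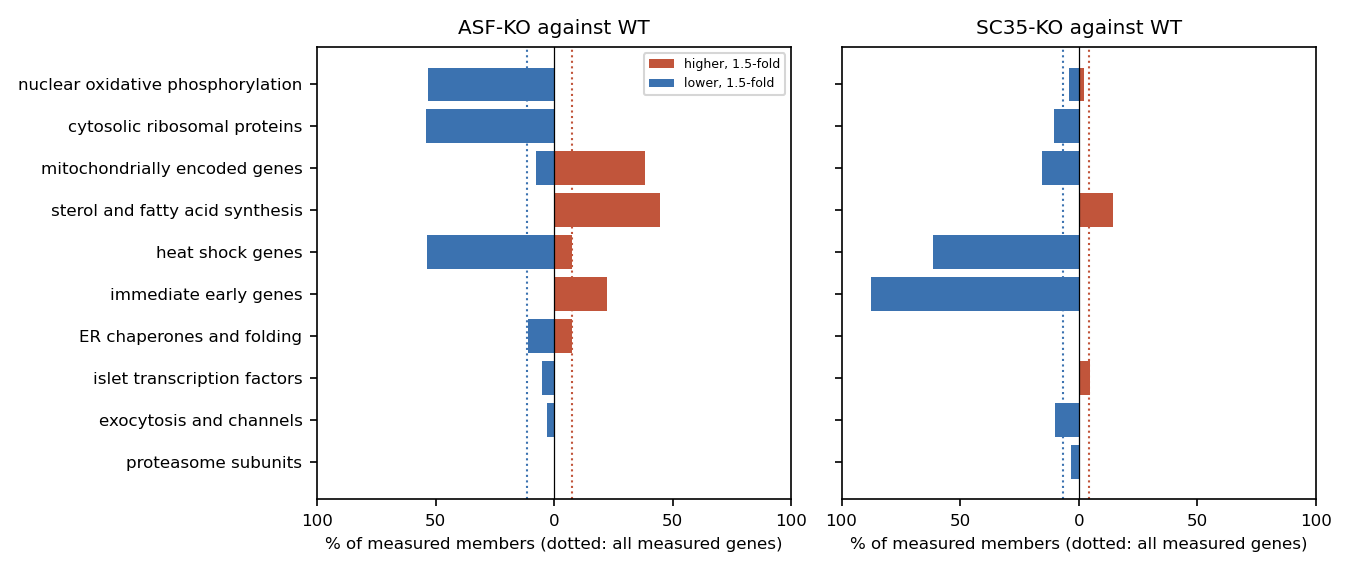
Share of measured members (%) that were at least 1.5-fold higher (right of 0) or lower (left of 0) than the median gene in gamma cells, for 10 gene lists. Dotted lines give the shares over all measured genes. In ASF-KO lower ribosomal and oxidative phosphorylation genes stand far beyond the line, and in SC35-KO immediate early and heat shock genes.

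The libraries labelled SC35-KO and ASF-KO were also set against each other, with 9.61% of 7229 genes higher and 7.9% lower in SC35-KO. This comparison shares a library with each of those above. Mt1 and Mt2 were 5.23-fold and 5.33-fold higher in SC35-KO, and Nop10, Zfas1, Snhg3 and Gas5, a ribosome assembly gene and 3 hosts of small nucleolar RNAs, were 2.17 to 2.73-fold higher. Fos, Fosb, Jun, Klf6 and Dnajb1 were lower, with folds of 0.399, 0.368, 0.467, 0.384 and 0.402. Of 76 ribosomal protein genes 46 were higher and none lower.

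RNA of other cells was present in some gamma barcodes. The 21 listed exocrine enzyme genes found in the files summed to 6228, 798 and 218 CPM, and 10, 0 and 1 gamma cells had at least 1% of such UMIs, up to 37.4% in WT. Without those cells the sums were 581, 798 and 107 CPM. Rnase1 and Pnliprp2, the lowest genes of SC35-KO against WT with folds of 0.0269 and 0.0271, had 75.4% and 64.7% of their WT UMIs in 1 cell. Cd74, the invariant chain of antigen-presenting cells, had 7.63, 78.2 and 1.74 CPM, with 98.8% of its ASF-KO UMIs in 1 cell. Summed markers of endothelial cells (23.9, 63.2 and 17.0 CPM), macrophages (38.9, 82.7 and 34.5 CPM), B cells (4.39, 1.36 and 0.387 CPM) and T cells (1.15, 0 and 0 CPM) were low.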

How the data were processed

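The deposited values are UMI counts per gene and barcode, whole numbers with no normalization, for 32285 genes in each of 3 libraries made with 10x Chromium 3′ v3 chemistry, per the labels' protocols. Cell Ranger 5.0.0, STAR, Seurat and mm10 are named in the submitters' processing notes, without the role of each. Islets were released with collagenase, picked under a stereomicroscope and dissociated with trypsin, per the labels' protocols. The libraries hold 154099078, 148320213 and 150116204 UMIs (WT, ASF-KO, SC35-KO).

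Gamma cells were taken by the hormone and quality limits given above. Alpha cells had Gcg and delta cells Sst at 5% or more and above the other 2 hormones, with insulin under 10%, and beta cells had insulin at 20% or more. Endothelial barcodes, with UMIs of at least 4 of 8 markers, gave the level of free RNA. A few of them also met an endocrine hormone limit, and levels without these, an alternative added after seeing the data, are given beside the main ones. Scrublet was run per library; the doublets it marked were kept, and leaving them out was an alternative. UMIs were summed per class and library and scaled to CPM with exact Poisson intervals, and ratios carry exact conditional binomial intervals. Shares carry Clopper-Pearson intervals. No test was run, since each group has 1 library.

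Named between libraries are the 10 highest and 10 lowest genes by the interval bound nearest to the median gene, at 50 CPM and 20 UMIs or more. Mitochondrial, ribosomal, sex-linked, exocrine enzyme, immunoglobulin, unnamed and hormone genes were left out of this ranking, as were genes that another type held at over 10 times the gamma level. Named between types are the 15 genes with the highest lowest bound over 3 types and 3 libraries and the 10 lowest against alpha and against delta cells. From each of 41 lists the extreme and the most abundant members are named. A few genes that these rules select are not reported here. The cells and the lists were chosen with earlier results of these data known. The ratio intervals were tested on simulated counts with known folds. Sequences are from RefSeq (GRCm38.p6) and gene positions from GENCODE vM21. Exonic lengths are unions of exons, found for at least 99.8% of genes in each group. Scanpy 1.11.5, scipy 1.17.1 and pandas 2.3.3 were used under python 3.11.15, with matplotlib 3.10.9 for the plots.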

Additional observations from a re-analysis of the deposited data

Results flagged for a closer look

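Cd74 in ASF-KO against WT had a fold of 7.77 in gamma cells but 0.0358 in alpha, 0.0378 in delta and 0.429 in beta cells, so the direction of the summed counts differed between cell types. The difference was not tested, and 98.8% of the Cd74 UMIs of ASF-KO gamma cells came from 1 cell.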

How the results depend on the processing

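No paired analysis was possible because each label has 1 library. Of the shares and counts recomputed under the alternatives, 190 stayed within their limits and 35 moved; of the single genes and lists 1928 stayed, 202 moved and 4 reversed. With Ppy from 10% the log2 fold of Cd74 became -4.1 (ASF-KO against WT) and 2.3 (SC35-KO against ASF-KO), since 1 cell was left out. Without the cells rich in exocrine enzymes, an alternative added after seeing the data, the log2 folds in ASF-KO against WT became 0.645 for Pnliprp2 and 0.513 for Rnase1. The gamma share in SC35-KO was 3.65% with Ppy from 10%. The 3 shares were 2.69%, 1.57% and 2.57% with Gcg and Sst under 2% and 2.5%, 1.49% and 2.46% with both under 1%, so ASF-KO was lowest throughout these limits. With hormone and mitochondrial genes left out of the total, which lets lower genes pass the limit of 10 CPM, 636 genes were higher and 731 lower in SC35-KO against WT and 1114 higher in SC35-KO against ASF-KO. With cells weighted equally 470 were higher in SC35-KO against WT. Measured from 50 CPM, the counts (higher, lower) were 102 and 242 in ASF-KO against WT, 29 and 132 in SC35-KO against WT, 191 and 131 in SC35-KO against ASF-KO, 37 and 61 against alpha, 94 and 185 against delta and 128 and 141 against beta cells. From 2-fold they were 96 and 269, 29 and 101, 156 and 126, 70 and 85, 133 and 321, and 209 and 280. The main counts in this order were 550 and 828, 296 and 427, 695 and 571, 164 and 191, 314 and 556, and 445 and 572. The list medians of ribosomal, oxidative phosphorylation, heat shock, sterol and immediate early genes kept their direction against WT wherever the main median was at least 1.1-fold from the median gene. Depth limits genes under 10 CPM, where ASF-KO, with 166 cells, has the widest intervals.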
